A study of Homo sapiens with 6 samples.

Results

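Progression through G1 is set by a small group of genes, and 10 of them were followed in YAPC cells with and without induced GLI2: the D cyclins CCND1, CCND2 and CCND3, the E cyclins CCNE1 and CCNE2, the kinases CDK4 and CDK6, and the CDK inhibitors CDKN1A (p21), CDKN1B (p27) and CDKN2B (p15). They were taken by symbol, as a pathway, from a table of 25442 genes, with earlier results of these data known. YAPC is a human pancreatic ductal adenocarcinoma (PDA) cell line of the classical subtype. Both groups held pRetroX-Tight-Puro, a vector whose insert is induced with doxycycline (Dox). The deposited data name the cells YAPCrtta, read here as YAPC cells of both groups that also carry the transactivator rtTA. In YAPC-iGLI2 cells the insert was GLI2, a transcription factor of the Hedgehog pathway, and YAPC-iEV cells had the empty vector (EV). All 6 RNA-seq libraries, 3 from each group, came from cells given Dox for 6 days, so Dox itself was common to both groups and no library without Dox was analysed here. Whether the 3 replicates of a group were separate cultures is not stated, and the p-values measure only the spread between these libraries.

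In G1, D cyclins bind CDK4 and CDK6 and start the phosphorylation of the retinoblastoma protein, and E cyclins acting through CDK2 complete it. Release of E2F factors from that protein then turns on the genes of S phase. p15 belongs to the INK4 family, which blocks CDK4 and CDK6, while p21 and p27 belong to the CIP/KIP family, which also blocks CDK2. In PDA the INK4 locus on chromosome 9 is among the loci most often lost.

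Of the 10 genes, CDK6 rose and CDKN1B fell in iGLI2 cells. CDK6 was 43.1% higher (41.9 against 29.3 FPKM) and CDKN1B 26.4% lower (10.4 against 14.2 FPKM). The very low CCND2 was 6.62 times lower, but it did not reach the minimum level of the test. CCND1, CCND3, CCNE1, CCNE2, CDK4 and CDKN1A did not pass, and CDKN2B was listed at 0 in every library. Values are FPKM, fragments scaled to the length of the transcript and the size of the library, so that levels can be compared between genes. Differences were tested with limma on log2(FPKM + 1) over 12493 genes, those whose mean reached 1 FPKM, and a gene passed at a Benjamini-Hochberg adjusted p under 0.05. Of the 8 G1 genes tested, the 2 that passed make 25%, close to the 21.9% of all genes tested. Neither call held with iEV replicate 1, 2 or 3 or iGLI2 replicate 2 left out.

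The sequence just before the transcription start is given for the 2 genes that passed, as context for where GLI2 or E2F sites could lie. For 7 of the genes, 10 RefSeq (GRCh38.p14) promoter windows were searched, each of 250 bases before and 50 after a start. Any window of CCNE2 was left out before the search, and no window was used for CCND1 or CCND2. The 250 bases before the upstream start of CDK6 lie at chr7:92836574-92836823 on the minus strand, and those of CDKN1B at chr12:12717118-12717367 on the plus strand. Both are written 5′ to 3′ with GC boxes (GGGCGG, or CCGCCC on the other strand), the core of the site bound by SP1, in capitals.
CDK6: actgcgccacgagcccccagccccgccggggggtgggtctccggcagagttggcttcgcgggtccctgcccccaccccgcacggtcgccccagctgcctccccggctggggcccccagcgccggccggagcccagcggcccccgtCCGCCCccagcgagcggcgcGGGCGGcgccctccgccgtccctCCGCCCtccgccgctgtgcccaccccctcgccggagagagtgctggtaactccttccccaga
CDKN1B: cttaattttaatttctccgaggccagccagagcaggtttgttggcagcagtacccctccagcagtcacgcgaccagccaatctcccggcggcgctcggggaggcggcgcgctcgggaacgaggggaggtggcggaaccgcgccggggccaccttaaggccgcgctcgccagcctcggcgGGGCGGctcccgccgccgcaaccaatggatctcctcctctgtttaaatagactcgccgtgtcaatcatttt

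The CDK6 stretch had 3 GC boxes and a GC content of 80%, and the CDKN1B stretch had 1 GC box and a GC content of 64.4%. The 250 bases before the other CDK6 start, not printed here, had 0 GC boxes and a GC content of 67.6%. Over the full windows, 8 of the 10 held a GC box, against 45.0% of all 35116 promoter windows, whose median GC content was 58.7%. The 10 windows had a GC content of 60.3 to 81%, and CCND3 and CDK6 each gave more than a single window. The GLI motif GACCACCCA, searched on both strands, was in 0 of the 10 windows and in 0.236% of all windows. The E2F motifs TTTCCCGC and TTTGGCGC were in 0 of the 10, against 1.63% and 0.652% of all windows. The GLI and E2F motifs are so rare over all windows that 10 windows would seldom hold any. The 0 of 10 therefore does not show that these genes lack such sites, and only the exact letters were searched. These counts describe letters in 300-base windows and not binding, and they do not cover CCND1, CCND2 or CCNE2.

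The libraries differed as their labels state. GLI2 was at 0.466, 0.412 and 0.344 FPKM in iEV replicates 1 to 3 and at 94.5, 207 and 195 FPKM in iGLI2 replicates 1 to 3, so that iGLI2 replicate 1 had the lowest level of its group. The summed FPKM of a library was lower in iGLI2 cells (803145 to 889555 against 981341 to 1082684), and the microRNA gene MIR4461 held 35.7 to 37.7% of it in iGLI2 and 42.6 to 45.4% in iEV libraries. Read counts cannot be had from FPKM and depth is unknown. Of 7 ductal epithelial markers, 5 were expressed, with a summed level of 1914 to 2064 FPKM in iEV and 1731 to 2014 FPKM in iGLI2 cells, while KRT8 and KRT18 were listed at 0 in all 6 libraries. Since those keratins are made by most simple epithelia, a listed 0 was not read as absence. Summed levels of 10 fibroblast markers were 2.35 to 2.91 and 3.09 to 4.04 FPKM (DCN at 0), those of 9 leukocyte markers 14.2 to 18.3 and 9.86 to 18.0 FPKM, those of 5 endothelial markers 0.487 to 0.537 and 0.467 to 0.654 FPKM, and those of 5 acinar markers 5.18 to 13.3 and 2.71 to 4.40 FPKM (AMY2A, CPA1 and PNLIP at 0), in iEV and iGLI2 cells respectively. Of the markers tested, MUC1 was lower (log2 -2.29) and EPCAM (0.37), CDH1 (0.37) and the fibroblast marker COL1A1 (0.61, from 1.41 to 2.69 FPKM) were higher in iGLI2 cells, and the part of these markers or of MIR4461 in the results was not tested.

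Over all genes tested, 2742 of 12493 (21.9%) passed, 1262 higher (10.1%) and 1480 lower (11.8%), so that 46.0% of the calls were higher in iGLI2 cells. With the small RNA genes left out and the libraries rescaled, 59.3% of 3006 calls (24.7% of 12157 genes) were higher. Of the 10 G1 genes 8 reached the level needed for the test and 2 passed (25%), 1 in each direction, close to the 21.9% of all genes tested. The count rested on few libraries: no G1 gene passed (0 of 8) without iEV replicate 1, 2 or 3 or without iGLI2 replicate 2, and 1 passed without iGLI2 replicate 3 or after the rescaling. Over all genes, 17.5%, 9.79% and 10.4% passed without iEV replicates 1, 2 and 3, and 10.9% and 12.1% without iGLI2 replicates 2 and 3. Without iGLI2 replicate 1, 30% of all genes passed and 3 of the 8 G1 genes did. The groups did not overlap for 3 of the 8 (CCND3, CDK6 and CDKN1B), against 42% of all genes tested. The median log2 fold change was -0.040 for the 8 and -0.015 for all genes.

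**Figure D1:**
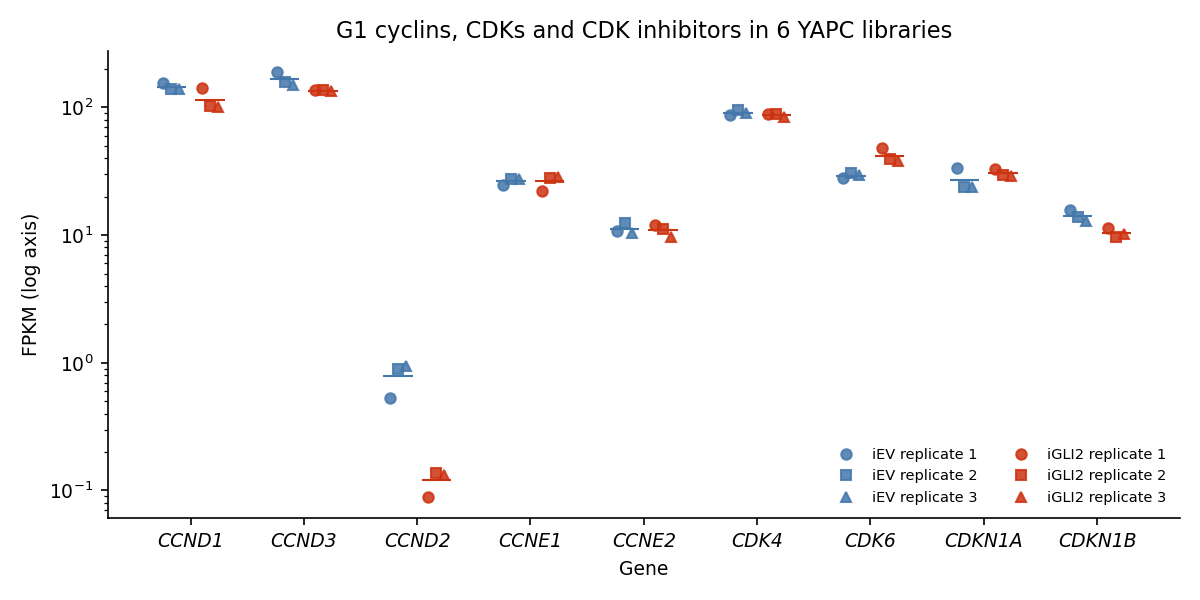
Level of 9 G1 genes in each of the 6 libraries, in FPKM on a log axis, with iEV cells in blue and iGLI2 cells in red, a marker shape for each replicate number and a bar at each group mean; CDKN2B, at 0 throughout, cannot be drawn on a log axis. CDK6 lies higher in all 3 iGLI2 libraries, CDKN1B, CCND3 and CCND2 lie lower in all 3, and the groups overlap for the other 5 genes.

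CDK6 (chr7:92234235-92546501 in hg19, minus strand) encodes a catalytic partner of the D cyclins. It was at 27.8, 30.6 and 29.4 FPKM in iEV replicates 1 to 3 and at 48.4, 39.4 and 37.7 FPKM in iGLI2 replicates 1 to 3. All iGLI2 libraries lay above all iEV libraries, with iGLI2 replicate 1 the highest. With means ± SD over 3 libraries of 29.3 ± 1.37 and 41.9 ± 5.76 FPKM, its log2 fold change was 0.50 (SE 0.106, 95% interval 0.24 to 0.75, limma adjusted p = 0.0234). The direction held in all 14 alternative analyses, with log2 fold changes of 0.39 to 0.57. The call was lost without iEV replicate 1, 2 or 3 (adjusted p = 0.0681, 0.0727 and 0.0846 with limma) and without iGLI2 replicate 2 (0.0634). The change was larger in size than that of 83.5% of genes tested. The table gives LOC101927497 the same locus as CDK6, and since the library kit is not described as stranded, reads of overlapping genes may not be told apart; that gene was at 2.85 ± 0.846 and 4.99 ± 1.89 FPKM.

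CDK4 (chr12:58138784-58146230, minus strand), the other D cyclin partner, stood at 87.2, 95.1 and 90.7 FPKM for iEV and at 88.8, 88.3 and 84.4 FPKM for iGLI2 cells. The groups overlapped, and the log2 fold change was -0.061 (95% interval -0.21 to 0.087, limma adjusted p = 0.515). That interval allows a change between 0.864 and 1.06 times on the scale of FPKM + 1. The overlapping TSPAN31, on the same table locus, was at 30.6 ± 2.07 FPKM with the empty vector and 35.5 ± 0.528 FPKM with GLI2 and did not pass either. Within a library, a ratio of these kinases does not depend on how the library was scaled. CDK6 made up 24.2, 24.3 and 24.5% of the summed FPKM of CDK4 and CDK6 in iEV replicates 1 to 3, and 35.3, 30.9 and 30.9% in iGLI2 replicates 1 to 3. The groups did not overlap, and the iEV libraries lay close together. The difference was 8.03 percentage points (24.3 ± 0.137% against 32.4 ± 2.55%), with p = 0.1 in an exact two-sided permutation test, the smallest that 3 against 3 libraries allow, and 0.2 after adjustment over 6 such ratios.

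CCND3 (chr6:41902671-42016632, minus strand), cyclin D3, was the highest of the 10 genes in both groups. It was at 190, 158 and 150 FPKM in iEV and at 137, 136 and 133 FPKM in iGLI2 replicates 1 to 3. Every iGLI2 library lay below every iEV library, and the iGLI2 libraries were the closer together. The means were 166 ± 21.1 and 135 ± 1.80 FPKM, and the log2 fold change of -0.28 (SE 0.098, 95% interval -0.52 to -0.042) did not pass (limma adjusted p = 0.0953). None of the 14 alternatives brought it past the threshold, with adjusted p-values of 0.0662 to 0.233.

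CCND1 (chr11:69455873-69469242, plus strand), cyclin D1, was next in level, at 154, 140 and 140 FPKM in iEV and 143, 102 and 101 FPKM in iGLI2 replicates 1 to 3. iGLI2 replicates 2 and 3 were below all iEV libraries, but iGLI2 replicate 1 was among them. The means were 145 ± 8.31 and 115 ± 23.8 FPKM, with a log2 fold change of -0.34 (SE 0.147, 95% interval -0.70 to 0.016, limma adjusted p = 0.154). Without iGLI2 replicate 1 the log2 fold change was -0.51 (limma adjusted p = 0.00528), the only alternative of 14 in which CCND1 passed. This is the iGLI2 library with the least GLI2. Replicate 1 was also the highest iEV library for CCND1. The part of the GLI2 level or of the replicate number in the CCND1 result was not tested.

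CCND2 (chr12:4357933-4414522, plus strand), cyclin D2, was near the bottom of the range. Its levels were 0.531, 0.901 and 0.950 FPKM in the iEV libraries and 0.0895, 0.137 and 0.133 FPKM in the iGLI2 libraries. The groups were far apart, with every iGLI2 library lower than every iEV library. The means of 0.794 ± 0.229 and 0.120 ± 0.026 FPKM differ 6.62 times, but their overall mean is under 1 FPKM and the gene was outside the test. With no minimum level, where 15.1% of 20035 genes passed, the log2 fold change of FPKM + 1 was -0.67 (SE 0.097, limma adjusted p = 0.0097). That call was lost without iEV replicate 2 (adjusted p = 0.0527), iGLI2 replicate 2 (0.0534) or iGLI2 replicate 3 (0.0511). With a pseudocount of 0.1, which weighs low values more, the log2 fold change was -1.99. CCND2 made up 0.261 ± 0.093% of D cyclin FPKM in iEV and 0.049 ± 0.015% in iGLI2 cells, so it added little to the sum.

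The summed FPKM of the D cyclins was 344, 299 and 291 in iEV and 280, 238 and 234 in iGLI2 replicates 1 to 3, lower in every iGLI2 library. Unlike a ratio within a library, this sum depends on how the libraries were scaled, and it was not tested. Within that sum the shares of CCND1 and CCND3 overlapped between the groups, while the small CCND2 share was lower in every iGLI2 library (exact two-sided permutation p = 0.1, or 0.2 after adjustment over 6 ratios). CCND1 held 46.6 ± 1.70% of it in iEV and 45.6 ± 4.66% in iGLI2 cells, and CCND3 held 53.1 ± 1.79% and 54.3 ± 4.64% (exact two-sided permutation p = 0.8 for each). iGLI2 replicate 1 was the library where CCND1 exceeded CCND3, at 51.0% of the sum.

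Of the E cyclins, which act with CDK2 late in G1, neither passed. CCNE1 (chr19:30302901-30315215, plus strand) was at 24.6, 27.4 and 27.5 FPKM for iEV and at 22.0, 28.2 and 28.7 FPKM for iGLI2 cells. CCNE2 was at 10.7, 12.3 and 10.4 FPKM with the empty vector and at 12.1, 11.2 and 9.75 FPKM with GLI2. Both sets of values overlapped, and for CCNE1 the iGLI2 libraries were the lowest and the highest of all 6. The 95% intervals of the log2 fold changes ran from -0.30 to 0.27 for CCNE1 and from -0.26 to 0.23 for CCNE2 (limma adjusted p = 0.932 and 0.925). CCNE1 held 70.4 ± 1.88% of E cyclin FPKM in iEV and 70.3 ± 5.22% in iGLI2 cells (exact two-sided permutation p = 1). The table places CCNE2 on a locus with INTS8, which was at 10.4 ± 1.00 and 10.7 ± 0.536 FPKM.

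CDKN1B (chr12:12870204-12875316, plus strand) encodes p27, an inhibitor that holds cyclin E and CDK2 in check and is removed as cells enter S phase. It was at 15.8, 13.8 and 12.9 FPKM in iEV and at 11.5, 9.68 and 10.2 FPKM in iGLI2 replicates 1 to 3. All iGLI2 libraries were lower than all iEV libraries. From 14.2 ± 1.47 to 10.4 ± 0.914 FPKM, the log2 fold change was -0.41 (SE 0.097, 95% interval -0.64 to -0.17, limma adjusted p = 0.0328), larger in size than that of 78.5% of genes tested. The direction was the same in all 14 alternatives (-0.47 to -0.33), and 8 of them kept the call. It was lost after rescaling without small RNA genes (limma adjusted p = 0.0879) and without iEV replicate 1, 2 or 3 (0.0704, 0.103 and 0.0615) or iGLI2 replicate 2 or 3 (0.118 and 0.107).

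CDKN1A (chr6:36644237-36655116, plus strand) encodes p21, the inhibitor best known as a p53 target. It was at 33.5, 24.0 and 23.8 FPKM in the iEV libraries and at 33.0, 29.4 and 28.9 FPKM in the iGLI2 libraries. iEV replicate 1 was the highest of all 6 libraries and the other iEV libraries the lowest, so the groups overlapped. The log2 fold change was 0.18 (95% interval -0.18 to 0.53, limma adjusted p = 0.435), and it did not pass in any of the 14 alternatives. Of the summed CDKN1A and CDKN1B FPKM, CDKN1A held 67.9, 63.5 and 64.8% in iEV and 74.2, 75.3 and 73.9% in iGLI2 cells, a ratio looked at after the values were seen and therefore given with no test. CDKN1A was above CDKN1B in all 6 libraries.

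CDKN2B, the gene of the INK4 inhibitor p15, was listed at 0 in all 6 libraries. In the table it shares a locus (chr9:21994790-22121093) with the antisense gene CDKN2B-AS1, which was at or below 0.065 FPKM. On the same chromosome arm, CDKN2A (the p16 and p14ARF gene) and DMRTA1 were listed at 0 too, while MTAP, on the other side of CDKN2A, was at 14.9 ± 0.059 FPKM for iEV and 14.8 ± 2.42 FPKM for iGLI2 cells. These genes around CDKN2B were chosen after their values were seen. The ratio of summed D cyclins to summed inhibitors (CDKN1A, CDKN1B and CDKN2B, the last at 0) was 6.99, 7.90 and 7.92 in iEV and 6.30, 6.09 and 6.00 in iGLI2 replicates 1 to 3. It was lower in every iGLI2 library, by 1.47 on average, with the smallest possible exact two-sided permutation p of 0.1 (0.2 after adjustment over the 6 ratios). The D cyclin sum was lower (means of 311 and 251 FPKM), while CDKN1A was higher on average and CDKN1B lower. The inhibitors CDKN1C (18.2 and 32.8 FPKM in iEV and iGLI2 cells), CDKN2C (10.6 and 10.1) and CDKN2D (32.9 and 40.7) were not in the sum.

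**Figure D2:**
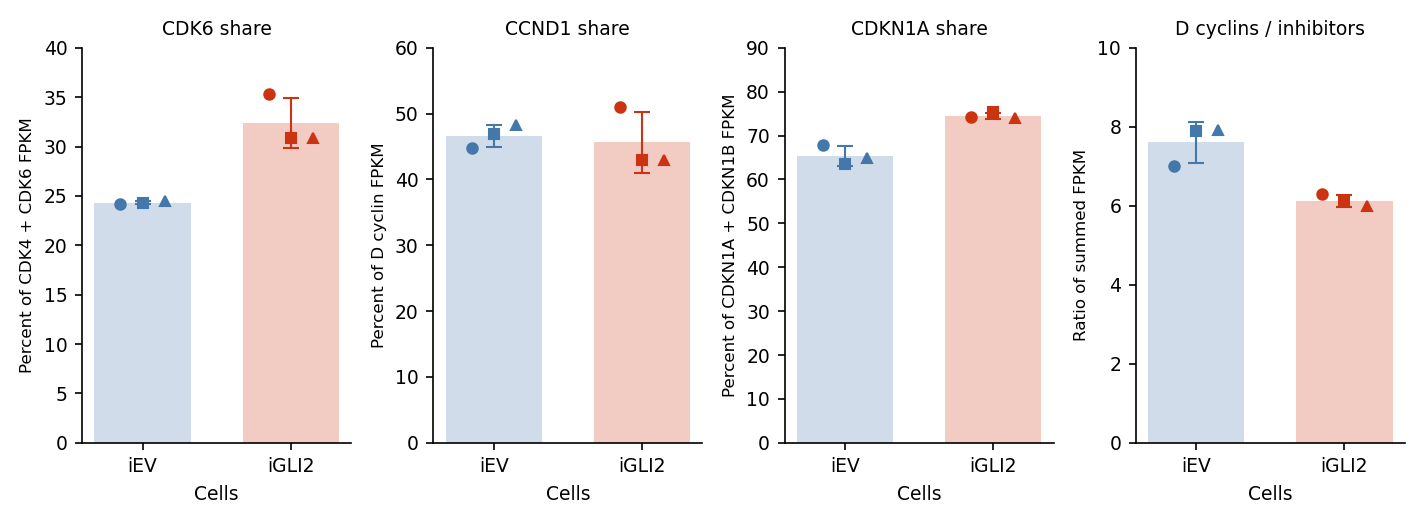
Ratios within a library for iEV (blue) and iGLI2 (red) cells: CDK6 as a percent of CDK4 and CDK6, CCND1 as a percent of the D cyclins, CDKN1A as a percent of CDKN1A and CDKN1B, and summed D cyclins over summed inhibitors, with a point for each library (circle, square and triangle for replicates 1, 2 and 3), bars at the mean and error bars of 1 SD (n = 3). The CDK6 and CDKN1A shares are higher in all iGLI2 libraries (32.4 against 24.3% and 74.5 against 65.4% on average). The D cyclin to inhibitor ratio is lower in all, and the CCND1 share overlaps between groups. The inhibitors summed are CDKN1A, CDKN1B and CDKN2B.

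Ordered by mean FPKM, the iEV cells ran CCND3, CCND1, CDK4, CDK6, CDKN1A, CCNE1, CDKN1B, CCNE2, CCND2 and CDKN2B. The ranges of CCND3 and CCND1 overlapped, as did those of CDK6 with CDKN1A and of CDKN1A with CCNE1. Within each iEV library, CCND3 was nonetheless above CCND1. In iGLI2 cells CDK6 stood clear of CDKN1A, and CDKN1A clear of CCNE1. There the overlapping neighbours were CCND3 with CCND1 and CCNE2 with CDKN1B, which had changed places. Among all genes tested, CCND3 and CCND1 were at a mean level above 95.5% and 94.8% of genes, and CCNE2 above 49.1%.

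**Figure D3:**
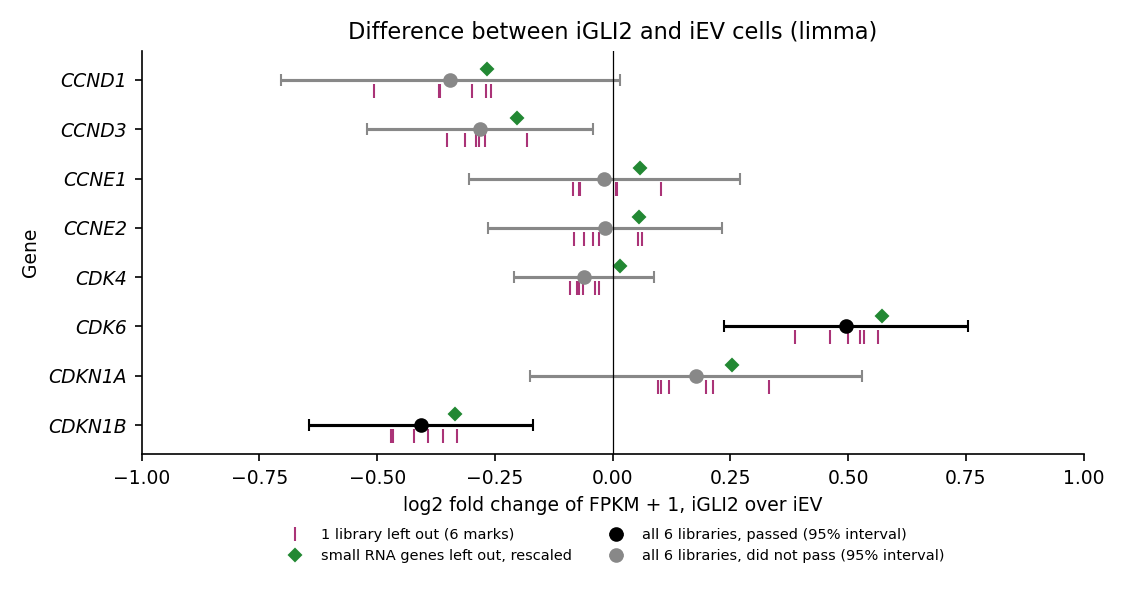
Log2 fold change of FPKM + 1 between iGLI2 and iEV cells for the 8 G1 genes tested, with 95% intervals from limma, black where the gene passed and grey where it did not; ticks show the value with each library left out and diamonds the value after small RNA genes were left out and libraries rescaled. CDK6 (0.50) and CDKN1B (-0.41) keep their direction at every mark, whereas CCNE1 and CCNE2 have marks on both sides of 0 and CDK4 moves to 0.016 after rescaling.

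Among 38 of 40 other G1/S regulators that could be tested, 5 passed (13.2%, against 21.9% of all genes), 3 higher and 2 lower, with a median log2 fold change of -0.049. CDKN1C, the gene of p57 and the remaining CIP/KIP inhibitor, rose from 18.2 ± 2.76 to 32.8 ± 1.53 FPKM (log2 0.82, limma adjusted p = 0.00524). It was at 21.1, 17.9 and 15.6 FPKM with the empty vector and 31.1, 34.1 and 33.2 FPKM with GLI2, with no overlap, and its call held with each library left out. FBXO4 (0.44), an F-box protein implicated in cyclin D1 turnover, and SKP1 (0.20), the adaptor of SCF ubiquitin ligases, were higher. CUL1 (-0.30), the scaffold of those ligases, and TFDP1 (-0.35), the DNA-binding partner of E2F factors, were lower. With limma, the adjusted p exceeded 0.05 without iEV replicate 3 or iGLI2 replicate 2 or 3 for these 4 genes other than CDKN1C, and also without iEV replicate 1 for FBXO4, SKP1 and TFDP1 and without iEV replicate 2 for CUL1, SKP1 and TFDP1, reaching 0.102, 0.136, 0.0729 and 0.0921 for FBXO4, SKP1, CUL1 and TFDP1. The count itself was 2 without iEV replicate 1 or 2, 1 without iEV replicate 3 or iGLI2 replicate 2 or 3, and 11 without iGLI2 replicate 1. The share over all genes moved too. It was 17.5%, 9.79% and 10.4% without iEV replicates 1, 2 and 3, and 30%, 10.9% and 12.1% without iGLI2 replicates 1, 2 and 3. Other genes of the pathway, named after their values were seen, did not pass: RB1 was at 16.1 ± 2.37 and 14.6 ± 1.40 FPKM, E2F1 at 37.8 ± 5.56 and 35.9 ± 1.92 FPKM, and the INK4 genes CDKN2C and CDKN2D at 10.6 ± 0.464 and 10.1 ± 1.20 FPKM and at 32.9 ± 0.716 and 40.7 ± 5.97 FPKM.

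Of 50 genes that E2F drives in S phase, 5 (10%) passed, against 21.9% of all genes tested, and all of those were lower. The log2 fold change was negative for 43 of the 50, against 6518 of all 12493 genes, with a median of -0.14 against -0.015. After rescaling without small RNA genes the median of all genes moved to 0.055. The sign count and the median of the list depend on that scaling and are given here only without it. RRM1, a subunit of ribonucleotide reductase, fell from 76.7 ± 2.27 to 48.2 ± 1.04 FPKM (log2 -0.66, limma adjusted p = 0.000991) and kept its call with each library left out. CDT1 (-0.50), which licenses origins, and POLE2 (-0.39), a subunit of DNA polymerase epsilon, were lower too. The adjusted p for CDT1 rose to 0.0538 without iEV replicate 2 and 0.0532 without iEV replicate 3, and that for POLE2 to 0.0928, 0.0894, 0.0784 and 0.0556 without iEV replicate 2, iEV replicate 3, iGLI2 replicate 2 and iGLI2 replicate 3, all with limma. As a count, 1 passed without iEV replicate 2, 2 without iEV replicate 3 or iGLI2 replicate 2 or 3, and 9 without iGLI2 replicate 1. Over all genes the share in those fits was 9.79%, 10.4%, 10.9%, 12.1% and 30%, in the same order. In RNA from a whole culture, fewer cells in a phase and less RNA per cell cannot be told apart.

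Of 50 genes of G2 and mitosis, 7 (14%) passed, a smaller share than the 21.9% of all genes tested, 6 lower and 1 higher, around a median of -0.045. BUB1B, a spindle checkpoint kinase that the table merges with PAK6, fell from 25.9 ± 0.392 to 18.0 ± 1.29 FPKM (log2 -0.50, limma adjusted p = 0.00474). WEE1 (-0.42), which holds CDK1 inactive, and CDC25B (-0.38), which activates it, were lower, and all 3 calls held with each library left out. NUF2 (0.27), of the kinetochore, was higher, with an adjusted p above 0.05 (limma, up to 0.128) when iEV replicate 1, 2 or 3 or iGLI2 replicate 2 or 3 was left out. The count was 4 without iEV replicate 1 or iGLI2 replicate 3 and 3 without iEV replicate 2 or 3 or iGLI2 replicate 2. Over all genes the share in those fits was 17.5%, 12.1%, 9.79%, 10.4% and 10.9%, in the same order.

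Of 30 genes listed from general knowledge as p53 targets, CDKN1A not among them, 27 could be tested and 11 passed (40.7%, against 21.9% of all genes tested). Of those, 8 were higher and 3 lower, and the median of the list was 0.087. PHLDA3, an inhibitor of AKT signalling, rose from 13.8 ± 1.95 to 44.8 ± 4.38 FPKM (log2 1.63, limma adjusted p = 0.00072). SESN3 (1.61), of the sestrin stress proteins, rose from 1.01 ± 0.498 to 5.13 ± 1.42 FPKM, and MDM2 (0.68), the ubiquitin ligase of p53, from 6.93 ± 0.450 to 11.8 ± 1.09 FPKM. The other sestrin genes on the list, SESN1 (0.60) and SESN2 (-0.36), did not pass. The death receptor gene TNFRSF10B (-0.55), the DNA repair gene DDB2 (-0.44) and the pro-apoptotic gene BBC3 (-0.48) were lower. The calls of PHLDA3, SESN3, MDM2 and TNFRSF10B held with each library left out. That of DDB2 was lost without iEV replicate 2 or 3 or iGLI2 replicate 3 (limma adjusted p up to 0.0629) and that of BBC3 without iEV replicate 1, 2 or 3 (up to 0.0786). The count of 11 fell to 4 without iEV replicate 2 or 3, 6 without iGLI2 replicate 2 and 5 without iGLI2 replicate 3, where the share over all genes was 9.79%, 10.4%, 10.9% and 12.1%.

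Of 39 other cyclins, cyclin-dependent kinases and their binding proteins, 33 were tested and 5 passed (15.2%, against 21.9% of all genes tested), 3 higher and 2 lower, with a median of 0.060. CABLES1, which links CDKs to the kinases that phosphorylate them, fell from 6.59 ± 0.633 to 1.43 ± 0.410 FPKM (log2 -1.65, limma adjusted p = 0.000991). Its relative CABLES2 (0.41) was higher, as were CCNI (0.22) and CCNI2 (0.99), which encode atypical cyclins, while CDK8 (-0.47), a kinase of the Mediator complex, was lower. The CABLES1 and CCNI2 calls held with each library left out. With limma, CABLES2 and CCNI did not pass without iEV replicate 1, 2 or 3 or iGLI2 replicate 2 or 3 (adjusted p up to 0.141 and 0.126), and CDK8 did not pass without iEV replicate 3 or iGLI2 replicate 2 or 3 (up to 0.0659). The count was 3 without iEV replicate 1 or 2, 2 without iEV replicate 3 or iGLI2 replicate 2 or 3, and 8 without iGLI2 replicate 1. Over all genes the share in those fits was 17.5%, 9.79%, 10.4%, 10.9%, 12.1% and 30%, in the same order.

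**Figure D4:**
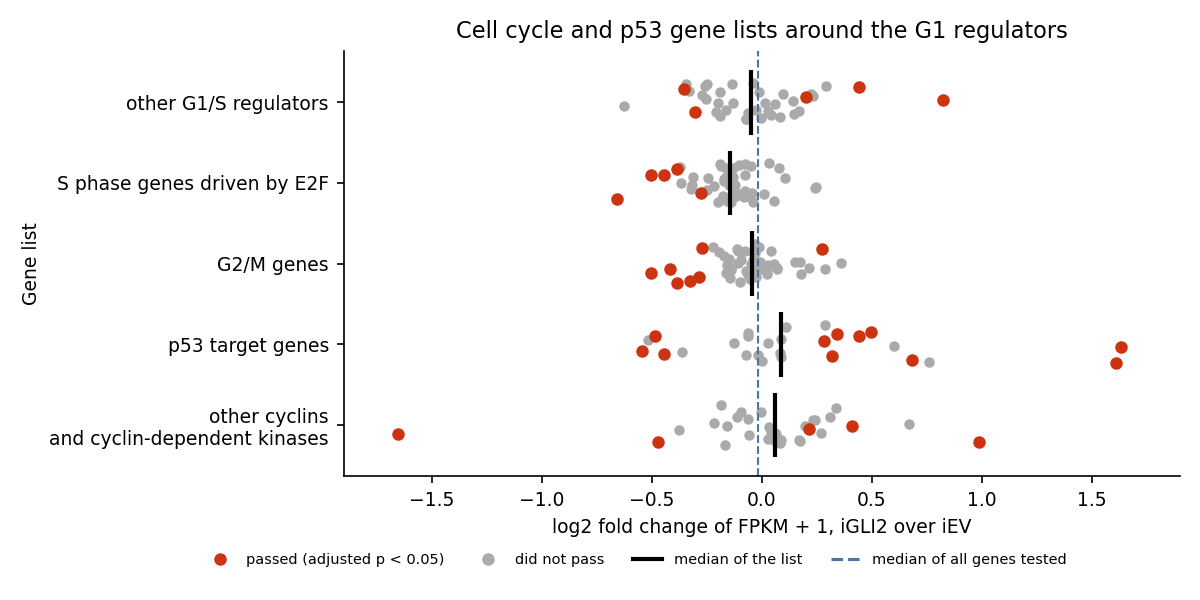
Log2 fold change of FPKM + 1 between iGLI2 and iEV cells for each tested gene of 5 lists, red where it passed and grey where it did not, with a black line at the median of the list and a dashed line at the median of all genes tested (-0.015). The S phase list has its median furthest below that line (-0.14), and the p53 list has 8 higher and 3 lower genes that passed.

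The genes next to CDK6 and CDKN1B on the chromosome were read in the same fit. Within 500 kb of CDK6, 5 of 12 tested genes passed (41.7%, against 21.9% of all genes tested) and all were higher: AKAP9 (0.46), ANKIB1 (0.38), GATAD1 (0.23), SAMD9 (0.94) and SAMD9L (0.39). SAMD9, an interferon-responsive gene, rose from 6.83 ± 0.455 to 14.0 ± 1.86 FPKM. The nearest separate gene, FAM133B at 14.5 kb, was at 11.6 ± 0.300 and 12.7 ± 1.17 FPKM and did not pass. Near CDKN1B 2 of 13 genes passed (15.4%), with MANSC1 lower (-0.81, from 32.5 ± 1.09 to 18.2 ± 1.04 FPKM) and DUSP16, a phosphatase of MAP kinases, higher (0.45). The nearest gene, GPR19 at 21.1 kb, was at 1.18 ± 0.178 and 1.10 ± 0.093 FPKM. Within 200 kb of CDK6, 2 of 6 passed. High shares within 500 kb were not particular to CDK6: 7 of 15 passed near CCND3 (46.7%), 2 of 4 near CCND1 and 4 of 10 near CDKN1A. Near CCNE2 0 of 10 passed, and near CDK4 1 of 23. Around all 10 G1 genes, 25 of 100 neighbours passed (25%), 13 higher and 12 lower, and within 200 kb 12 of 62 (19.4%), both near the 21.9% of all genes.

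**Figure D5:**
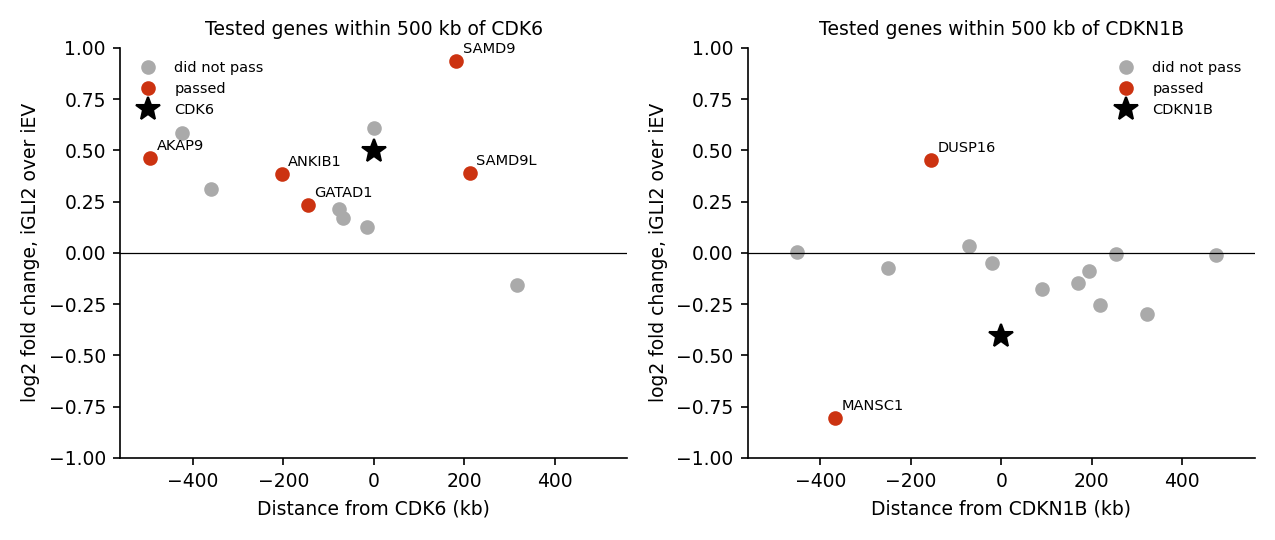
Log2 fold change of FPKM + 1 between iGLI2 and iEV cells against distance in kb for tested genes within 500 kb of CDK6 (left) and CDKN1B (right), red where they passed and grey where they did not, with a star for CDK6 or CDKN1B itself. All 5 neighbours of CDK6 that passed are higher, and the 2 near CDKN1B differ in direction.

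Likeness of pattern was described by the Pearson correlation of log2(FPKM + 1) over the 6 libraries, which share the group difference. The genes most like CDK6 were GJA1, the connexin 43 gene (r = 0.996), PIGV (0.995) and the merged DISC1 and TSNAX entry (0.995). Those most like CDKN1B were SLC2A6 (0.998), ZCCHC14 (0.998) and ESRP2 (0.997), a splicing regulator of epithelial cells that went from 15.7 ± 1.20 to 11.9 ± 0.925 FPKM. For CDK6, CDKN1B and all of these genes, iGLI2 replicate 1 was the highest iGLI2 library.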

How the data were processed

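RNA was measured by RNA-seq (Illumina TruSeq RNA kit, from total RNA) in 6 libraries, 3 iEV and 3 iGLI2, grouped by their titles. The authors trimmed reads with Trimmomatic, and the submitters' processing notes name TopHat2, hg19 and Cuffdiff 2.1.1. The gene annotation and the scaling between libraries are not given in the sources used here. The table deposited by the authors holds FPKM values, a unit inferred from the values since the header names none, and very short genes such as MIR4461 can hold a large share of the summed values. Of 27024 entries, 1252 outside the primary chromosomes and 330 with the same name as a higher entry were left out. Starts of loci were raised by 1 to match a genome browser.

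Values were fitted as log2(FPKM + 1) with limma 3.58.1 (R 4.3.3), with group as the only term and an intensity trend, over 12493 genes (mean of 1 FPKM or more), two-sided, with Benjamini-Hochberg adjustment over all of them. The test was tried on simulated data first. Ratios within a library were compared with exact permutation tests (scipy 1.17.1). Alternatives were upper quartile scaling, quantile normalization, 336 small RNA genes left out with rescaling, a pseudocount of 0.1, no minimum level, a mean of at least 5 FPKM, a replicate block, no trend, each library left out in turn and a 200 kb window for neighbours. Alternatives of the fit without a minimum level for CCND2 were chosen after seeing the data. The 10 genes and the gene lists, written from general knowledge, were chosen with earlier results of these data known. Named from each list were the 3 genes of smallest p in each direction among those that passed, from neighbours the nearest gene and every gene that passed around a G1 gene that passed, and for likeness the 3 genes of highest correlation. Promoter sequences and motifs came from RefSeq (GRCh38.p14).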

Additional observations from a re-analysis of the deposited data

How the results depend on the processing

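Over the 14 alternatives, CDK6 kept its direction and passed in 10, and CDKN1B kept its direction and passed in 8. CCND3, CCNE1, CCNE2, CDK4 and CDKN1A passed in none and CCND1 in 1. After rescaling without small RNA genes, 1 G1 gene passed, and the log2 fold changes of CCNE1, CCNE2 and CDK4 turned positive (0.058, 0.056 and 0.016), as did those of CCNE1 and CCNE2 with some of the libraries left out (-0.084 to 0.10 and -0.081 to 0.061). Leaving out 1 library at a time, 1223 to 3753 genes passed in all, with 0 to 3 G1 genes, 1 to 11 other G1/S regulators, 1 to 9 S phase genes, 3 to 10 G2/M genes, 4 to 10 p53 targets and 2 to 8 other cyclins and kinases. The difference in share ran from -3.66 to 0.394 points for CCND1, -0.178 to 3.87 for CCND3, -2.35 to 2.73 for CCNE1 and 6.56 to 8.78 for CDK6, and that of the D cyclin to inhibitor ratio from -1.78 to -1.32. Quantile normalization gave 8 other G1/S regulators, a mean of at least 5 FPKM gave 7 p53 targets and 3 other cyclins and kinases, and a 200 kb window gave 12 of 62 neighbours. Among the fits with 1 library left out, the lowest counts came from leaving out an iEV library or iGLI2 replicate 2 or 3. The highest, p53 targets aside, came from leaving out iGLI2 replicate 1. The replicate block gave a higher count still over all genes (3928). The cause of these moves was not tested.

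Replicate numbers in the titles are shared by the groups. Deviations of libraries of the same number had small positive correlations (r = 0.204, 0.0919 and 0.0276 for numbers 1, 2 and 3). Those of unlike numbers ran from -0.193 to 0.117. Sample codes in the titles end in the same digit and letter for numbers 1 and 2 but not for number 3. No label states a pairing, so the block is not used as the result, and whether the libraries were paired is not known. With the replicate block 3928 genes passed (31.4% of all genes tested), with 10 other G1/S regulators, 14 S phase genes and 11 G2/M genes. No call of a G1 gene changed. Depth is unknown, which limits what can be said of CCND2 and of genes listed at 0.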

Other observations

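Among the genes too low for the test, named here after their values were seen, CDK15 was at 2.69, 1.39 and 1.25 FPKM in iEV and at 0.271, 0.0754 and 0.0824 FPKM in iGLI2 replicates 1 to 3, lower in every iGLI2 library by a ratio of means of 12.4. CDK14 was at 0.155 ± 0.012 FPKM in the iEV libraries and 0.380 ± 0.050 FPKM in the iGLI2 libraries, higher in every iGLI2 library. Both are PFTAIRE kinases, and neither was tested.

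Neighbours of CCND1 lie outside the naming rule, since it did not pass, and they are named with their values known. Within 500 kb of CCND1, 2 of 4 tested genes passed, against 21.9% of all genes tested. FGF19, the gene of a secreted growth factor, lies 43.8 kb from it and was higher by 5.40 on the log2 scale, and ANO1, a calcium-activated chloride channel at 455 kb, was at 6.02 ± 1.15 and 12.1 ± 0.111 FPKM (log2 0.91, limma adjusted p = 0.0048). The nearest gene, ORAOV1 at 11.1 kb (-0.20), and MYEOV (0.20) did not pass. FGF19 had already been listed by the paper among the transcripts most raised by GLI2. CCND1 between the same libraries had a log2 fold change of -0.34 and did not pass.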
